A study of Homo sapiens with 6 samples.

Results

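Cystatins are small proteins that block cysteine proteases of the papain type, above all the lysosomal cathepsins. The expression of 9 of them was examined in DLD-1 cells with and without DKK-1: the stefins CSTA and CSTB, the secreted cystatins CST1 to CST6, and CST7. Members were all probe sets that the platform annotation pairs with one of these symbols. They came to 9 probe sets, 1 per gene, of 18404 named genes and 32321 probe sets in all. No probe set shared between a cystatin and another gene was found. The family was taken up because CST1 and CST7 changed in opposite directions on these same arrays. The differences below are therefore given as a description, and nothing rests on them as a test.

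DLD-1, a cell line from a human colorectal adenocarcinoma, has mutated APC and, according to the study, lacks DKK-1 of its own. One group (DLD-1/DKK1) carried a lentivirus from which doxycycline induces an epitope-tagged DKK-1 together with eGFP, and the other (DLD-1/Mock) carried the vector without DKK-1. The cells were transduced in bulk with no cloning described, and both groups had received doxycycline for a day, at 10 mg/ml in the labels and in micrograms per ml in the methods of the study. RNA of 3 dishes per group was hybridized to 6 single-colour whole-transcript arrays, which gave log2 values after robust multichip averaging. The sources used here do not say how many transductions the dishes stem from, so errors measure the spread between dishes.

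Cystatins fall into types that differ in where they act. Stefins lack a signal peptide and stay in the cytosol, where they hold cathepsins that leak from lysosomes. The secreted cystatins guard saliva, tears and other fluids. CST1 (cystatin SN), CST2 (cystatin SA) and CST4 (cystatin S) are close paralogs known from the salivary gland, and CST1 is also made by many gastrointestinal tumors. CST7 (cystatin F) is best known from leukocytes, where it is sent to lysosomes and restrains cathepsin C.

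The DKK1 transcript differed as the labels say, with a log2 level of 5.30 ± 0.38 (SD, n = 3) in DLD-1/Mock, against 12.35 ± 0.04 (SD, n = 3) in DLD-1/DKK1. Mock 2 was the array least like the rest, with correlations of 0.9953 to 0.9969 to them across probe sets, against at least 0.9973 for other pairs. Of the 10 markers of colon epithelium, EPCAM, CDH1, KRT8, KRT18 and CDH17 were among the brightest probe sets, at percentiles 96.2 to 98.8. CDX2 and VIL1 lay at 89.1 and 83.3, LGALS4 and CDX1 at 64.8 and 55.7, and KRT20 was dim (percentile 32.8 of all probe sets). With limma, 0 of the 10 passed an adjusted p of 0.05. An unadjusted p under 0.05 was found for 1 (CDH17, log2 fold change 0.18) and for 9.23% of all probe sets. Values of the groups did not overlap for 6 of the 10 (3 higher and 3 lower in DLD-1/DKK1). Such groups were found for 16.5% of all probe sets. Of 32321 probe sets, 28 (0.0866%) passed an adjusted p of 0.05 with limma, 12 higher and 16 lower in DLD-1/DKK1. With each array centred on its median these counts were 10 higher and 7 lower.

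Among the 9 cystatins, CST1 passed higher and CST7 passed lower in DLD-1/DKK1, where 0.0371% of all probe sets passed higher, 0.0495% lower and 0.0866% in either direction. The groups did not overlap for 6 of the 9, with CST1 and CST2 higher and CST4, CST5, CST6 and CST7 lower, where 7.91% of all probe sets had such groups higher, 8.55% lower and 16.5% in either direction. These shares are given side by side only, because the family was chosen from this contrast. CST3, CSTA and CSTB had overlapping groups. The median log2 fold change of the 9 was -0.07, and that of all 18404 genes was -0.01.

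**Figure D1:**
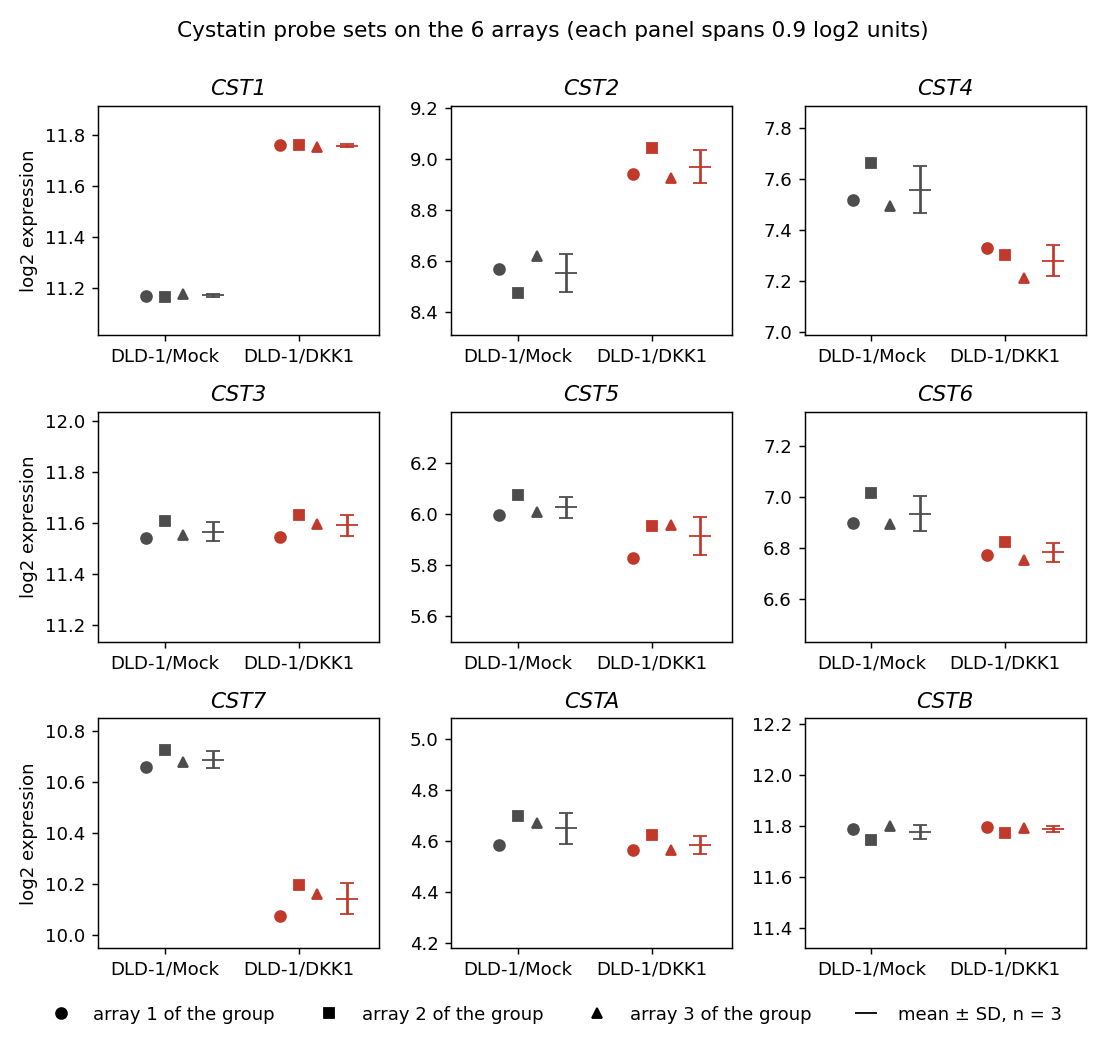
Log2 expression (vertical axis) of each cystatin on each array of DLD-1/Mock and of DLD-1/DKK1, with a symbol per array and a bar with whiskers for the mean ± SD (n = 3); every panel spans the same number of log2 units, so heights of change can be compared while levels cannot. CST1 and CST2 lie higher in DLD-1/DKK1, CST4 and CST7 lie lower, and CST3 and CSTB overlap between the groups.

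CST1 (probe set 8065412), an inhibitor of cathepsins and of papain, showed the highest fold change of the family. Its log2 expression was 11.17, 11.17 and 11.18 in Mock 1 to 3 and 11.76, 11.76 and 11.75 in DKK1 1 to 3. All DLD-1/DKK1 arrays thus lay above all DLD-1/Mock arrays, and the gap between the groups (0.57) was far wider than the range within either (0.01). The level was 1.50-fold higher in DLD-1/DKK1, with a 95% interval of 1.42-fold to 1.59-fold, and the log2 fold change was 0.59 (SE 0.04). The SE is moderated by limma and is set mostly by the other probe sets. The residual SD of CST1 itself was 0.0055, at percentile 0.0186 of all probe sets, where the median was 0.0740. CST1 was a bright probe set (percentile 94.4 of the mean over arrays), and it passed without Mock 2 but not without any one of the other arrays, when its log2 fold change still ran from 0.58 to 0.59.

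CST2 (8065416), a salivary paralog of CST1, was higher as well. It had log2 values of 8.57, 8.47 and 8.62 in DLD-1/Mock and of 8.94, 9.04 and 8.93 in DLD-1/DKK1. The groups did not overlap, and the gap between them was 0.31. The log2 fold change was 0.42 (SE 0.06), with a 95% interval of 0.28 to 0.55, a 1.33-fold higher level. CST2 did not pass over all probe sets. It passed when only annotated probe sets were fitted, and when only probe sets above the median brightness were.

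CST4 (8065410), the third of these paralogs, lay on the other side. Its log2 values were 7.52, 7.66 and 7.50 in DLD-1/Mock and 7.33, 7.30 and 7.21 in DLD-1/DKK1, so that the groups were separate, with Mock 2 highest. The log2 fold change was -0.28 (SE 0.06; 95% interval -0.42 to -0.13) and -0.23 without Mock 2, and CST4 did not pass in any of the fits.

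Within an array, the log2 difference between 2 probe sets shows whether their signals changed by unequal amounts. CST1, CST2 and CST4 differ in brightness (percentiles 94.4, 71.5 and 57.3), and changes at low brightness are compressed. Unequal changes of signal therefore need not mean unequal changes of the transcripts. CST1 minus CST4, set to 0 at the DLD-1/Mock mean, was 0.82, 0.85 and 0.93 in DKK1 1 to 3, while the DLD-1/Mock arrays lay between -0.11 and 0.07. CST2 minus CST4 was 0.62, 0.75 and 0.72, against -0.18 to 0.13. CST1 minus CST2 was smaller, at 0.20, 0.10 and 0.21, against -0.06 to 0.07. The signals of CST1 and CST2 thus moved apart from that of CST4 on every DLD-1/DKK1 array, and less from each other. The coding sequences of the 3 genes are closely related, and the probe sequences were not used here, so a part of each signal may be shared between them. How much of the CST2 difference comes from CST1 transcripts was not tested.

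CST7 (8061416), the lysosomal cystatin F, was the member with the lowest fold change. It had log2 values of 10.66, 10.72 and 10.68 in DLD-1/Mock. In DLD-1/DKK1 the values were 10.07, 10.19 and 10.16, all below the former, with a gap of 0.47 between the groups. The level was 1.46-fold higher in DLD-1/Mock (95% interval 1.35-fold to 1.58-fold), and the log2 fold change was -0.54 (SE 0.05). CST7 did not pass after median centring (-0.49), without moderation, or without any one array, with -0.57 to -0.51 in the last. In bulk RNA, fewer cells that express a gene and less RNA per cell cannot be told apart.

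Because CST7 is known from leukocytes, markers of these cells were examined beside it. With limma, 0 of 11 measured markers passed and 2 had an unadjusted p under 0.05, where 9.23% of all probe sets did. A log2 fold change below 0 was found for 10 of the 11 and for 53.6% of all genes. The part of these markers in the CST7 difference was not tested. The mean log2 level of the 11 was 5.88 to 6.003 in DLD-1/Mock and 5.83 to 5.84 in DLD-1/DKK1. PTPRC, which all leukocytes express, was dim at 4.34 in both groups (percentile 9.83). CD2, CD3E, MS4A1 and GNLY were dim too, at percentiles 16.6 to 32.4. ITGAM, CD14, GZMB, PRF1, NKG7 and CD68 lay at percentiles 40.8 to 56.6, and CST7 at 87.7. CD68 and CD14, which mark monocytes and macrophages, had the lowest log2 fold changes of these, at -0.26 and -0.27. For fibroblasts, 0 of 6 markers passed with limma and 0 had an unadjusted p under 0.05, where 9.23% of all probe sets did. LUM and DCN were at percentiles 7.09 and 10.9, and COL1A1, COL1A2, COL3A1 and PDGFRB lay at 45.4 to 57.7.

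CST3 (8065403), the widely expressed cystatin C, was bright and overlapped between the groups. It had log2 values of 11.54, 11.61 and 11.55 in DLD-1/Mock and of 11.55, 11.63 and 11.60 in DLD-1/DKK1. The log2 fold change was 0.02 with a 95% interval of -0.08 to 0.13.

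CST5 and CST6 were dimmer secreted members. CST5 (8065421), cystatin D, is known as a vitamin D target in colon cancer cells. It had log2 values of 5.99, 6.07 and 6.01 in DLD-1/Mock and of 5.83, 5.95 and 5.96 in DLD-1/DKK1. The groups were separated by only 0.04, less than the range within either, and the log2 fold change was -0.11 (95% interval -0.24 to 0.01). CST6 (7941505), cystatin E/M, inhibits legumain besides cathepsins and is known from epidermis. It had log2 values of 6.90, 7.01 and 6.89 in DLD-1/Mock and of 6.77, 6.82 and 6.75 in DLD-1/DKK1. Its gap of 0.07 was also below the range within the groups, and the log2 fold change was -0.15 (95% interval -0.27 to -0.03). Neither passed in any of the fits.

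The stefins did not pass either. CSTB (8070701), which is found in most cells, had log2 values of 11.79, 11.74 and 11.80 in DLD-1/Mock and of 11.80, 11.77 and 11.79 in DLD-1/DKK1. The log2 fold change was 0.01 (95% interval -0.08 to 0.10), and its sign turned after cyclic loess and without Mock 2. CSTA (8082058), a precursor of the cornified envelope of skin, was dim (percentile 15.6). It had log2 values of 4.58, 4.70 and 4.67 in DLD-1/Mock and of 4.56, 4.62 and 4.56 in DLD-1/DKK1, with a log2 fold change of -0.07 (95% interval -0.18 to 0.05). A change of so dim a probe set could have been missed.

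Position was asked next, since most secreted cystatins lie side by side. In the RefSeq gene table (GRCh38.p14), CST3, CST4, CST1, CST2 and CST5 follow each other in this order on chromosome 20, and CST7 lies farther on, after GGTLC1 and SYNDIG1. Going along the chromosome, the log2 fold changes were 0.02 for CST3, -0.28 for CST4, 0.59 for CST1, 0.42 for CST2 and -0.11 for CST5, so that the 2 members with the highest values were neighbours, with CST4 and CST5 on either side. The 5 other cystatin genes that precede CST3 (CSTL1, CST11, CST8, CST9L and CST9) had values of -0.08 to -0.01 at percentiles 20.9 to 31.3. Of the 8 other protein-coding genes in the stretch and its flanks, 0 passed with limma (0.0866% of all probe sets) and 1 had an unadjusted p under 0.05 (9.23%), and their log2 fold changes ran from -0.19 to 0.11. APMAP, the next gene after CST7, had 0.02, and SYNDIG1 before CST7 had -0.19 (SE 0.08). The gene with an unadjusted p under 0.05 was ACSS1, which follows APMAP, at -0.17 (SE 0.06).

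**Figure D2:**
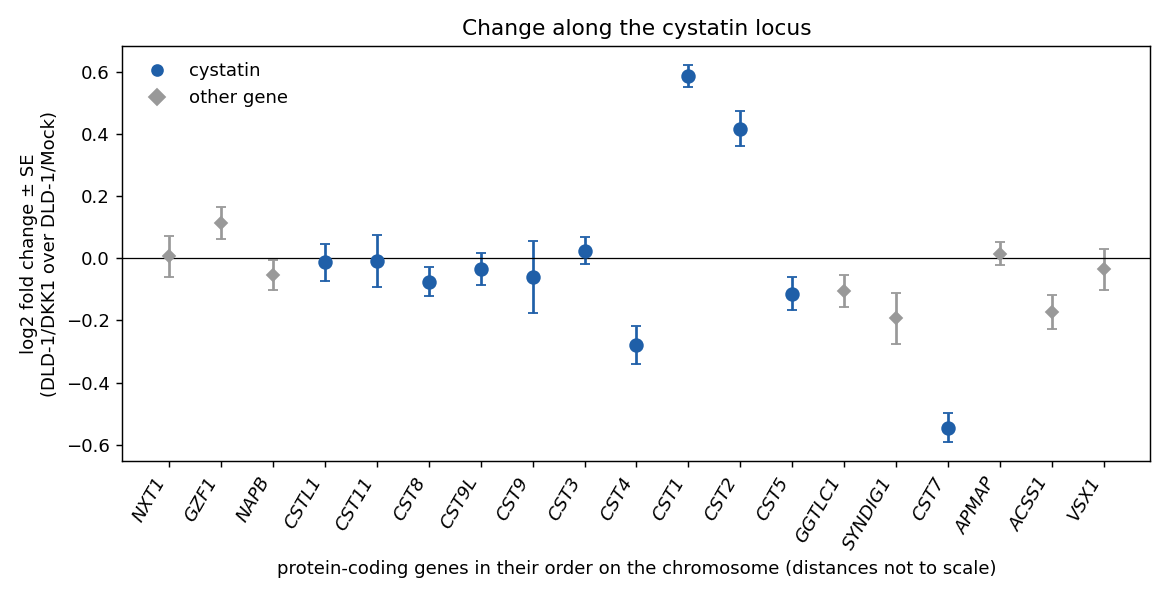
Log2 fold change in DLD-1/DKK1 relative to DLD-1/Mock (vertical axis, points with whiskers for the limma SE, 3 arrays per group) for 11 cystatin genes and 8 other protein-coding genes in their order on the chromosome, with distances not to scale. CST1 and CST2 lie at 0.59 and 0.42, CST4 beside them at -0.28 and CST7 at -0.54, while the other genes lie between -0.19 and 0.11.

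The proteases that cystatins inhibit were compared in the same fit. Of 12 cysteine cathepsins and legumain, 0 passed with limma and 1 had an unadjusted p under 0.05, where 9.23% of all probe sets did. The median log2 fold change was 0.02, with 6 members above 0 and 6 below. CTSB, an abundant lysosomal endopeptidase, had log2 values of 10.45, 10.43 and 10.42 in DLD-1/Mock and of 10.49, 10.49 and 10.42 in DLD-1/DKK1, and a log2 fold change of 0.04 (limma adjusted p = 0.784). CTSL, another endopeptidase, had 0.10 (limma adjusted p = 0.569). CTSC, the target of CST7 that activates granule proteases, had 9.79, 9.65 and 9.82 in DLD-1/Mock and 9.86, 9.88 and 9.85 in DLD-1/DKK1, with a log2 fold change of 0.11 (limma adjusted p = 0.574; 95% interval -0.02 to 0.24) that was 0.06 without Mock 2. Its groups did not overlap, but by less than the range within DLD-1/Mock. Groups without overlap were found for 4 of the 12, with CTSC and CTSL higher and CTSF and CTSZ lower. The share among all probe sets was 16.5%. LGMN, the legumain, had 0.04 (limma adjusted p = 0.773), and CTSS, an endopeptidase of antigen-presenting cells that was dim here, had -0.02 (limma adjusted p = 0.909), a sign that turned after quantile normalization, median centring and cyclic loess. CTSZ, a carboxypeptidase, was the one with an unadjusted p under 0.05, at -0.14 (SE 0.05; limma adjusted p = 0.514).

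**Figure D3:**
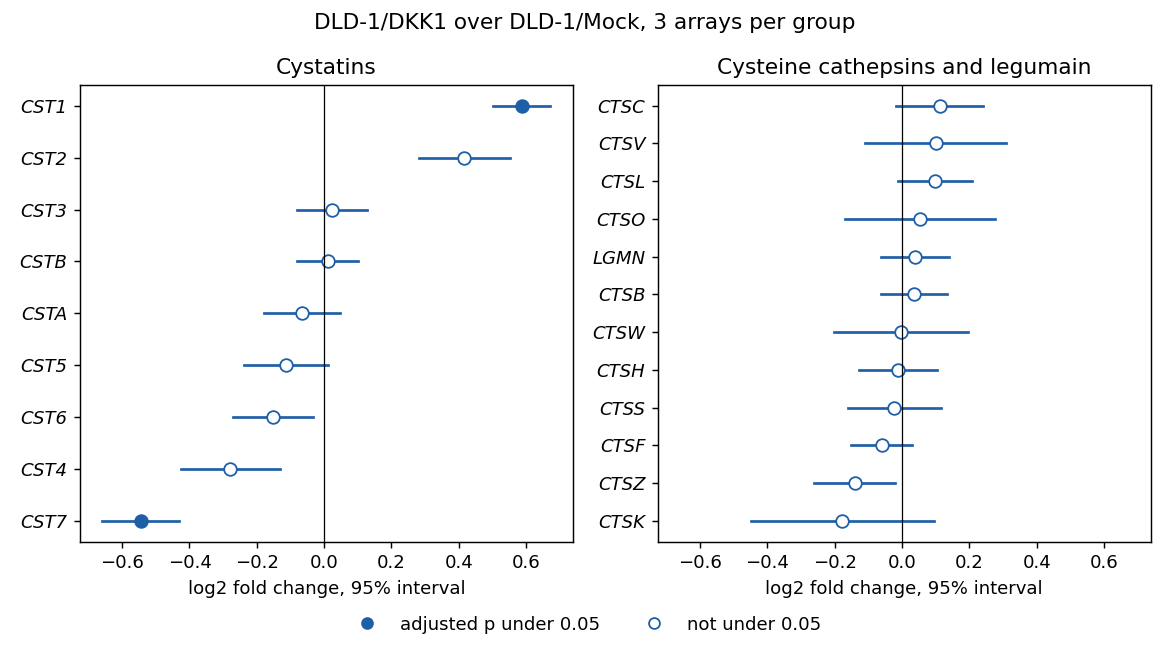
Log2 fold change in DLD-1/DKK1 relative to DLD-1/Mock (horizontal axis) with its 95% limma interval for the 9 cystatins (left) and for 12 cysteine cathepsins and legumain (right), 3 arrays per group, filled where the adjusted p was under 0.05. The cystatins run from -0.54 for CST7 to 0.59 for CST1, and the proteases from -0.18 for CTSK to 0.11 for CTSC.

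Lysosomal genes, which mark the compartment of these proteases, had 0 of 10 measured members past the threshold with limma, 1 at an unadjusted p under 0.05 (9.23% of all probe sets) and a median log2 fold change of 0.04. TFEB, a transcription factor of lysosomal genes, had the smallest p of them, with -0.17 (SE 0.05; limma adjusted p = 0.462). Genes of the cornified envelope, which CSTA and CST6 accompany in skin, had 0 of 11 past the threshold with limma, 3 at an unadjusted p under 0.05 (9.23% of all probe sets) and 9 below 0, with a median of -0.10, where 53.6% of all genes were below 0. Among them were SPRR3, an envelope precursor (-0.14; limma adjusted p = 0.523), and TGM1, a transglutaminase that cross-links it (-0.17; limma adjusted p = 0.523). The 9 cystatin relatives outside the family above, which include the liver-derived AHSG, FETUB, HRG and KNG1, were all dim (percentiles 11.5 to 31.3), and 0 passed with limma, with 0 at an unadjusted p under 0.05.

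Other genes with profiles like those of CST1 and CST7 were sought by the mean absolute difference of log2 values, each centred on its own mean over the 6 arrays. Arrays of 2 groups make this mostly a likeness of the group difference, and all points share the same dishes. The genes most like CST1 were TGFB2, a TGF-beta ligand (mean difference 0.03), SULT1C4, a sulfotransferase (0.05), and SH3BGRL, a small thioredoxin-like protein (0.05). CST2 came at place 20 of 19157 named probe sets in this order, with a mean difference of 0.08. The genes most like CST7 were ANXA9, an annexin (0.02), RAC2, a small GTPase (0.03), and LGALS3BP, a secreted galectin-binding glycoprotein (0.04). CST4 came at place 92 for CST7.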

How the data were processed

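The authors read the scans of Affymetrix Human Gene 1.0 ST arrays into R with the affy package and deposited log2 values made by the robust multichip average, which corrects background, equalizes array distributions and summarizes probe sets. This would hide a change common to most transcripts and compresses changes at low brightness. The sources used here give no tool versions. Deposited log2 values of 6 arrays (3 per group, by title) entered the fit unaltered. Their array medians ran from 6.76 to 6.86, so the deposited values were not fully equalized between arrays. Of 32321 probe sets, 19158 carried 1 gene symbol, 1388 several and 11775 none. Symbols were updated through gene numbers to a GRCh38.p14 gene table (19128 matched). As the annotation names no genome build, coordinates are left out. The table used here for promoter sequences had no entry for CST1, CST2, CST4, CST6, CST7, CSTA or CSTB, and no protein sequences were used.

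Each probe set was fitted with limma 3.58.1 in R 4.3.3 for the difference between the groups (lmFit and eBayes, two-sided, 4 residual and 2.56 prior degrees of freedom), with Benjamini-Hochberg adjustment across the whole table, an adjusted p threshold of 0.05 and 95% intervals. The number of arrays limits the precision. The members, the 4 pathway lists and the 3 marker lists were chosen with earlier results of these data known. Named genes were DKK1, the cystatins, CTSB, CTSL, CTSS, CTSC, LGMN, in each pathway list the genes that passed or else up to 2 with the smallest p if under 0.05 before adjustment, and the 3 genes nearest to CST1 and to CST7. Other genes were named after their values were seen. For a gene with several probe sets, the brightest was used in list counts. Some genes of the lists were not analysed here, and counts are over those that were. Alternatives were 3 scalings, filters on dim or unannotated probe sets, other priors, array weights, the replicate number as a block and each array left out. The fit was tested on simulated data. Figures were drawn with matplotlib 3.10.9.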

Additional observations from a re-analysis of the deposited data

How the results depend on the processing

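The cystatins past the threshold numbered 2, namely CST1 and CST7, in the fit reported. They numbered 1 after median centring and 1 without moderation, CST1 both times. Without moderation CST1 was the one probe set of 32321 that passed. Its SE there was 0.0045, resting on its very small residual SD of 0.0055. DKK1, with a log2 fold change of 7.05, did not pass in that fit (limma without moderation, adjusted p = 0.0646). The count of cystatins was 0 with the replicate number as a block, where 1 probe set passed in all. The sources used here do not say whether same-numbered dishes were handled together. Deviations of same-numbered arrays correlated at 0.10, 0.01 and -0.14, which cannot settle this. With 1 array left out the count was 0 to 1 cystatins (CST1, without Mock 2) and 2 to 6 probe sets. In each of these fits with limma, the block included, 4 or 5 cystatins had an unadjusted p under 0.05. Of all 32321 probe sets, 1914 to 3702 did in the same fits. The family was chosen from this contrast, so these counts are given side by side only. All probe sets past the threshold numbered 17 after median centring, 66 above the median brightness, 98 among annotated ones, 53 with a trended and robust prior, 59 with array weights and 1 without moderation. For fits with fewer arrays the loss follows in part from their number, and elsewhere the cause was not tested. The pathway lists stayed at 0 in every fit that held any of their genes. CSTB turned to -0.010 after cyclic loess and ran from -0.0058 (without Mock 2) to 0.022 with 1 array left out. CTSS turned to 0.00018 after quantile normalization, 0.029 after median centring, 0.0041 after cyclic loess and 0.0059 with array weights, and ran from -0.056 to 0.025 (without DKK1 3) with 1 array left out. Median centring moved the median of all probe sets from -0.01 to 0.05. The other named genes kept their direction, which filters and priors cannot alter.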
